A study of Mus musculus with 8 samples.

Results

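Arterial endothelial cells were described by single-cell RNA sequencing of non-haematopoietic femoral cells, in mice with a fracture under repair and in controls. A cell was a member when its own UMI (unique molecular identifier) counts held at least 5 UMIs of the endothelial genes Cdh5, Pecam1, Emcn and Egfl7 together with at least 1 of Cdh5, and at least 2 UMIs of Gja4, Gja5, Sema3g and Sox17 together. It also had to hold no UMI of Stab2 or Ptprc and at most 1 UMI of Top2a and Mki67, which left out sinusoidal, blood and dividing cells. The members were therefore chosen by measured values of these genes, whose levels are given below as a description and not as a test. The rule found 1733 of 45328 cells, of which Control preparations 1 and 2 gave 641 and 397 and Fracture preparations 1 and 2 gave 319 and 376.

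The Control group held wild-type C57BL/6 female mice of 12 weeks with unfractured bone, and the Fracture group held C57BL/6 females of 12 weeks in which the left leg had been broken by three-point bending at 10 weeks, stabilised with an intramedullary nail and collected at day 14. In both groups, cells positive for blood lineage markers, CD45 or CD117 had been removed with magnetic beads, so only cells that survived digestion and this depletion were measured. Each group had 2 preparations and each preparation 2 libraries, 8 libraries in all, with 56543151 to 89126291 UMIs per library. The libraries of a preparation were summed, so n = 2 per group, and since no label ties a preparation to separate animals, p-values measure the spread between preparations, which may be technical. Member cells were deeper in Fracture (median 8512 and 8728.5 UMIs per cell) than in Control (median 4572 and 5429), and a member barcode occurred in more than 1 library for 1 of 1732 barcodes. The tables of Control preparation 1 that were used here list no UMI of 368 genes, mostly with names starting with U, and these genes were left out of every sum and test.

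Arterial endothelium lines the vessels that carry blood into bone under high pressure and pulsatile flow. Its identity is known to rest on VEGF signalling upstream of Notch, in which the ligands Dll4, Jag1 and Jag2 on one cell activate Notch receptors on the next and induce the repressors Hey1 and Hey2, and on SoxF transcription factors such as Sox17. The cells are coupled by the connexins Gja4 and Gja5, carry ephrin B2 (Efnb2) where veins carry its receptor Ephb4, and build an elastic wall together with smooth muscle. In long bones, arterioles feed the capillaries that grow next to forming bone, which drain into the sinusoids of the marrow.

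The genes of the rule were at very different levels in the members and in the other endothelial cells, as the rule requires. Levels are normalised UMI counts (CPM, counts relative to a fixed library total), scaled by the TMM method within each class of cells. Gja4 (chromosome 4, 127311421 to 127314039, GRCm38) was at 568 and 677 CPM in Control and 719 and 753 in Fracture. Gja5 (chromosome 3, 96904693 to 97077416), the other arterial connexin, was at 169 and 177 CPM in Control and 140.5 and 110.3 in Fracture. Sema3g (chromosome 14, 31217860 to 31230352), which encodes a secreted semaphorin, was at 545 and 648 CPM in Control and 174 and 190.2 in Fracture. Sox17 (chromosome 1, 4490931 to 4497354) was at 672 and 687 CPM in Control and 344 and 374 in Fracture. In the other and sinusoidal endothelial cells Gja4 lay between 0.363 and 6.84 CPM in every preparation. In the members, Sema3g and Sox17 were lower in both Fracture preparations than in either Control preparation and Gja4 was higher in both.

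**Figure D1:**
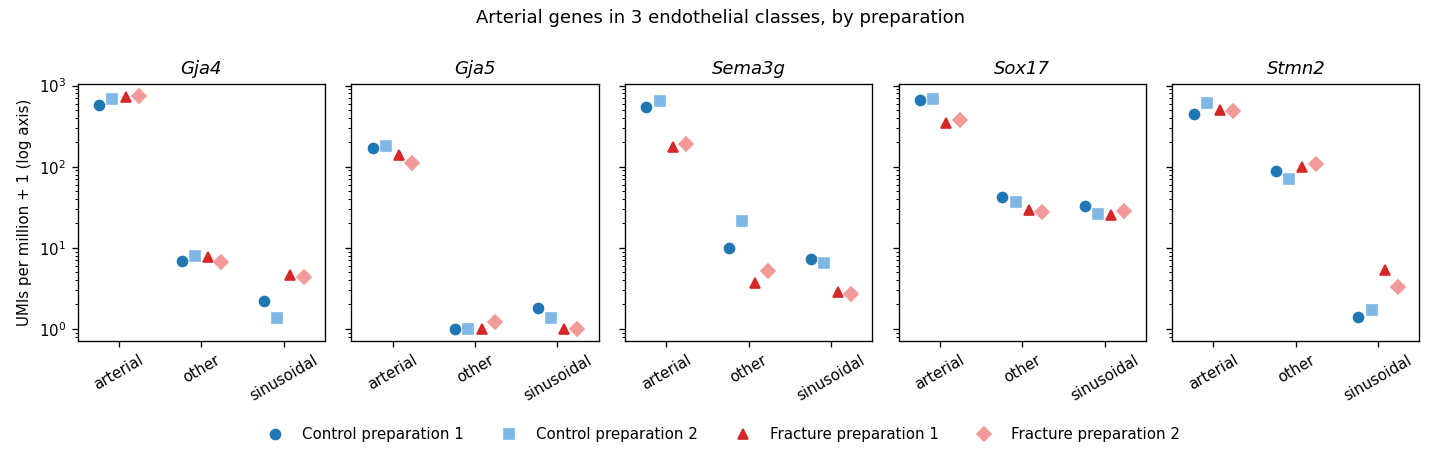
Level of the 4 arterial genes of the rule and of Stmn2 in arterial, other and sinusoidal endothelial cells (x axis) in CPM plus 1 on a log axis, with 1 point per preparation. The arterial cells were chosen by Gja4, Gja5, Sema3g and Sox17, so their distance from the other classes is built in, while Stmn2, at 449 to 604 CPM in arterial cells and at most 4.29 CPM in sinusoidal cells, was not part of the rule.

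The boundary of the rule was not sharp in Fracture. Of the members, 293 had exactly 2 UMIs of the 4 arterial genes, 152 had 3 and 1288 had 4 or more, while 534 endothelial cells without Stab2 lay just outside with 1 UMI and 1127 had none. When the members were thinned to 2000 UMIs each, 6.42% and 6.35% of them held none of the 4 genes in Control and 26.3% and 27.1% in Fracture, and the Fracture members were also the deeper cells, as given above. The arterial identity list is therefore given also with a stricter limit (at least 4 UMIs from at least 2 of the 4 genes, 1212 cells), and with 2 choices made after the data were seen, the rule applied to cells thinned to 5000 UMIs and a rule with Gja4 as the sole arterial gene. The part of depth in these results was not tested otherwise.

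The limits on other cells removed 423 of 2156 cells that passed the endothelial and arterial limits, 263 of them through Stab2, 172 through Top2a or Mki67 and 22 through Ptprc. A doublet caller marked 40 of the members, 23 in Control and 17 in Fracture. It marked none of the 1144 endothelial cells of Fracture preparation 2. At the lower edge of the endothelial limit, 14 members had a sum of 5 UMIs and 25 further cells would have been members with a sum of 4.

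The arterial label was checked with genes outside the rule. Of 33 genes of a list of arterial identity genes, 26 were above both the other endothelial and the sinusoidal cells in all 4 preparations, as a description of cells that the rule had already set apart. The exceptions were Cxcr4, Eln, Mgp, Clu, Alox12, Cdkn1a and Bmp4. Stmn2 (chromosome 3, 8509360 to 8561606), a regulator of microtubules best known from neurons, was at 449 and 604 CPM in Control and 499 and 486 in Fracture in the members, at 87 and 70 CPM in Control and 99.1 and 108 in Fracture in the other endothelial cells and at 0.413 and 0.726 CPM in Control and 4.29 and 2.27 in Fracture in the sinusoidal cells. Its level in the members did not pass the test between the groups (log2 change -0.09 ± 0.15, adjusted p = 0.682).

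Genes outside the rule with a mean of at least 20 CPM were ranked after the values were seen. Markers of other cell types were left out. The ranking used the smallest ratio of the members to either other class in any preparation, with 5 CPM added to both. The leading genes were Car7, Egfl8, Hey1, Dkk2, St8sia6, Ptprr, Mecom and Bmx. Of 12 smooth muscle and pericyte markers, which were left out, 6 were also above both other classes in all 4 preparations. Rgs5 among them was at 610 and 82 CPM in Control and 297 and 284 in Fracture. It was at most 45.7 CPM in the other classes. Car7, a cytosolic carbonic anhydrase, was at 48 to 164 CPM in the members and at most 6.84 CPM in the other classes. Egfl8, a paralog of the endothelial gene Egfl7, was at 69.4 to 186 CPM in the members and at most 6.53 CPM in the other classes. Dkk2, a secreted regulator of Wnt signalling, was at 72.4 to 127 CPM in the members and at most 16.6 CPM in the other classes. Mecom, a transcription factor, was at 226 to 317 CPM in the members and at most 44.9 CPM in the other classes. These genes were ranked on that separation, so it is a description.

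Within the members, cells with a Gja5 UMI had higher levels of Hey1 and lower levels of Plvap and Apln. A Gja5 UMI was found in 34.2% and 34.5% of the Control members and 28.2% and 28.5% of the Fracture members, without thinning. The values that follow are CPM without TMM scaling. Hey1 was at 241 and 203 CPM in the Gja5+ cells of Control against 118 and 71.3 CPM in the Gja5- cells, and at 129.6 and 155 against 52.8 and 64.8 CPM in Fracture. Plvap, which encodes the diaphragm protein of fenestrated capillaries, ran the other way, at 564 and 610.3 against 1160.2 and 1435 CPM in Control and at 638 and 668 against 1507 and 1693 CPM in Fracture. Apln, a ligand of growing capillaries, was at 14.1 and 13.1 CPM in the Gja5+ and at 109.7 and 113 CPM in the Gja5- cells of Fracture. Flt1, a VEGF receptor, differed less between the Gja5+ and Gja5- cells of Fracture, at 831 and 884 against 796 and 885 CPM. Gja5+ cells were deeper (medians per preparation of 5795 to 9881 UMIs against 4325.5 to 8439), and these splits use measured values, so they carry no test.

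The share of endothelial cells that met the rule was 42.0% (641 of 1526) and 35.8% (397 of 1108) in the Control preparations and 31.3% (319 of 1018) and 32.9% (376 of 1144) in the Fracture preparations, with the same limits on blood and dividing cells in the denominator. Both Fracture preparations lay below both Control preparations, and the difference was -6.82 percentage points (exact permutation test, two-sided, p = 0.333, the smallest p that 2 against 2 preparations can give). It was -3.73 without Control preparation 1. Among cells thinned to 5000 UMIs, which sets the depth equal, the shares were 42.5% and 33.8% against 27.3% and 28.4%, a difference of -10.3 points. Shallower cells were left out, which cost Control more cells. The endothelial cells were then 652 and 631 in Control and 847 and 1022 in Fracture. The stricter limit gave 33.0% and 27.2% against 18.1% and 19.5%. Of all cells, the members were 5.03% and 5.01% in Control and 2.69% and 2.94% in Fracture. Cells outside the endothelial limits with UMIs of Acan and Col2a1, called chondrocyte-rich here, numbered 3185 in Control and 18183 in Fracture. The members of Fracture themselves held Acan at 741 and 609 CPM and Col2a1 at 8183 and 6491 CPM. The chondrocyte-rich class can therefore hold other cells with stray cartilage RNA, and its size is not a count of chondrocytes.

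A Stmn2 UMI was found in 46.5% (261 of 561) and 46.4% (168 of 362) of the Control members and in 37.3% (119 of 319) and 34.6% (130 of 376) of the Fracture members at an equal depth of 2000 UMIs per cell, for which 115 Control members were too shallow and none of the Fracture members. The difference was -10.5 percentage points (exact permutation test, two-sided, p = 0.333, again the smallest possible). Without thinning the shares were 58.7% and 56.9% against 58.6% and 52.9%, and under the stricter limit they were 54.6% and 54.2% against 54.9% and 50.7%, so the groups overlapped in both. In thinned chondrocyte-rich cells, which lay outside the endothelial limits, at most 0.213% held a Stmn2 UMI (medians of 15850 and 12351 UMIs before thinning).

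Between the groups, 2970 of 11729 genes tested (25.3%) differed in the members by edgeR's quasi-likelihood test with Benjamini-Hochberg adjustment at an adjusted p under 0.05. Of all genes tested, 13.4% were higher in Fracture (1574 genes) and 11.9% were lower (1396 genes), and their median log2 change was -0.003. Fewer genes were called with 1 Fracture preparation left out. More genes were called with 1 Control preparation left out. Either choice leaves a group without a replicate, and the spread then comes from the other group alone. Neither the lower nor the higher counts therefore tell whether effects rest on both preparations of a group. Because a large share of all genes was called, the counts of each gene list below are to be read against these shares. Where counts of a list are given without 1 Fracture preparation, the first value is without preparation 1 and the second without preparation 2, and the lone Fracture preparation is assumed to vary like the others. All values of the gene lists carry the adjusted p of this test unless another is named.

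RNA of other cells moved with the groups. The summed level of 12 chondrocyte markers in the members was 3619 and 297 CPM in Control and 17495 and 13419 in Fracture. That of 12 osteoblast markers was 7439 and 6203 CPM in Control and 17729.6 and 15425 in Fracture, and that of 12 fibroblast markers 746 and 592 CPM in Control and 2476 and 1449.9 in Fracture. All of these were higher in both Fracture preparations, and none of their markers was at 0 in the members of all preparations. Blood cell markers (21 genes) summed to 984 and 407 CPM in Control and 2879.9 and 2069 in Fracture, where the haemoglobin genes rose and Pf4 and Mpo fell. Marrow stromal cell markers summed to 2864 and 2837 CPM in Control and 1761 and 1683 in Fracture, but Cxcl12 and Kitl, which the members held above both other endothelial classes in all 4 preparations, made up most of this sum. Outside the gate the same markers summed to 5076 and 5785 CPM in Control and 460.1 and 526 CPM in Fracture. Smooth muscle and pericyte markers summed to 2049 and 428 CPM in Control and 896 and 699 in Fracture, and lymphatic endothelial markers to 119 and 109 CPM in Control and 212 and 322 in Fracture. The smooth muscle sum was highest in Control preparation 1 alone. Of the genes called higher with a mean of at least 20 CPM, 444 of 1143 were at a lower level in the Fracture members than in the cells outside the endothelial gate, against 80 of 1116 genes called lower in the same comparison with Control. Without the 10% of members richest in such RNA, 1864 genes were higher and 1638 lower.

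Most arterial identity genes were lower in Fracture. Of the 33 arterial identity genes outside the rule, 23 fell (all genes tested, 11.9%), 2 rose (13.4%) and 8 did not pass the test, and the median log2 change was -0.95. With 1 Fracture preparation left out, 13 and 14 fell. Several genes of the elastic wall were among the 23. Fbln5, which is needed to assemble elastic fibres, was at 985 and 1094 CPM in Control and 294 and 305 in Fracture (log2 change -1.80 ± 0.11, adjusted p = 9.1e-04). Eln, which encodes elastin itself, was at 83.8 and 73.5 CPM in Control and 13.9 and 10.4 in Fracture (log2 change -2.70 ± 0.17, adjusted p = 9.1e-04). Fbln2, another fibulin, was at 899 and 1066 CPM in Control and 431 and 463 in Fracture (log2 change -1.14 ± 0.12, adjusted p = 0.00239). Ltbp4, which binds latent TGF-beta and elastic fibres, was at 1098 and 1214 CPM in Control and 731 and 743 in Fracture (log2 change -0.65 ± 0.10, adjusted p = 0.00751). Gkn3, a secreted protein known as a marker of brain arterial endothelium, was at 177 and 102 CPM in Control and 10.1 and 3.57 in Fracture (log2 change -4.41 ± 0.43, adjusted p = 0.00185). For all 5 genes the groups did not overlap, as for 23 of the 23 genes that fell. These genes had been picked by a test of the same values, so this adds no support.

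Other genes of the same list that fell are given next. Slc6a6, the taurine transporter, was at 1493 and 1560.1 CPM in Control and 504 and 554 in Fracture (log2 change -1.53 ± 0.10, adjusted p = 9.1e-04). Glul, glutamine synthetase, was at 849.6 and 1006 CPM in Control and 417 and 466 in Fracture (log2 change -1.07 ± 0.13, adjusted p = 0.00299). Alox12, a lipoxygenase, was at 118 and 119 CPM in Control and 30.2 and 37.9 in Fracture (log2 change -1.79 ± 0.13, adjusted p = 9.1e-04), with 129 CPM outside the gate in Control. Alox12 is the lipoxygenase of platelets, and the platelet gene Pf4 moved with it in the members, at 356 and 119 against 9.73 and 7.13 CPM. In the other endothelial cells Alox12 was at 795 and 262 against 23.8 and 24.2 CPM, Control against Fracture, and the part of platelet RNA in its fall was not tested. Rbp7, a retinol-binding protein, fell by 1.16 and Mgll, a monoacylglycerol lipase, by 1.24 on the log2 scale (adjusted p = 0.00816 and 0.0143). Tm4sf1, a membrane protein of endothelial protrusions, was at 3231 and 3942 CPM in Control and 2643 and 2525 in Fracture (log2 change -0.47 ± 0.12, adjusted p = 0.0338). Tm4sf1 did not pass under the stricter limit (log2 change -0.18 ± 0.13, adjusted p = 0.37), with the rule applied after thinning or with Gja4 alone.

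A pair of regulators ran against this direction. Cxcr4, the receptor of Cxcl12, was at 33.5 and 32.1 CPM in Control and 56.4 and 74.6 in Fracture (log2 change 1.00 ± 0.16, adjusted p = 0.00837). Sox7, a relative of Sox17, was at 104 and 88.3 CPM in Control and 149 and 159.7 in Fracture (log2 change 0.68 ± 0.11, adjusted p = 0.00908). Sox18 was at 939.7 and 1054 CPM in Control and 550.5 and 481 in Fracture (log2 change -0.95 ± 0.12, adjusted p = 0.00369). Mecom (log2 change -0.26, adjusted p = 0.182), Nrp1, a co-receptor of VEGF (-0.39, 0.052), Edn1, which encodes the constrictor endothelin-1 (-0.24, 0.344), and Igfbp3, a binding protein of insulin-like growth factors (0.15, 0.449), did not pass the test.

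**Figure D2:**
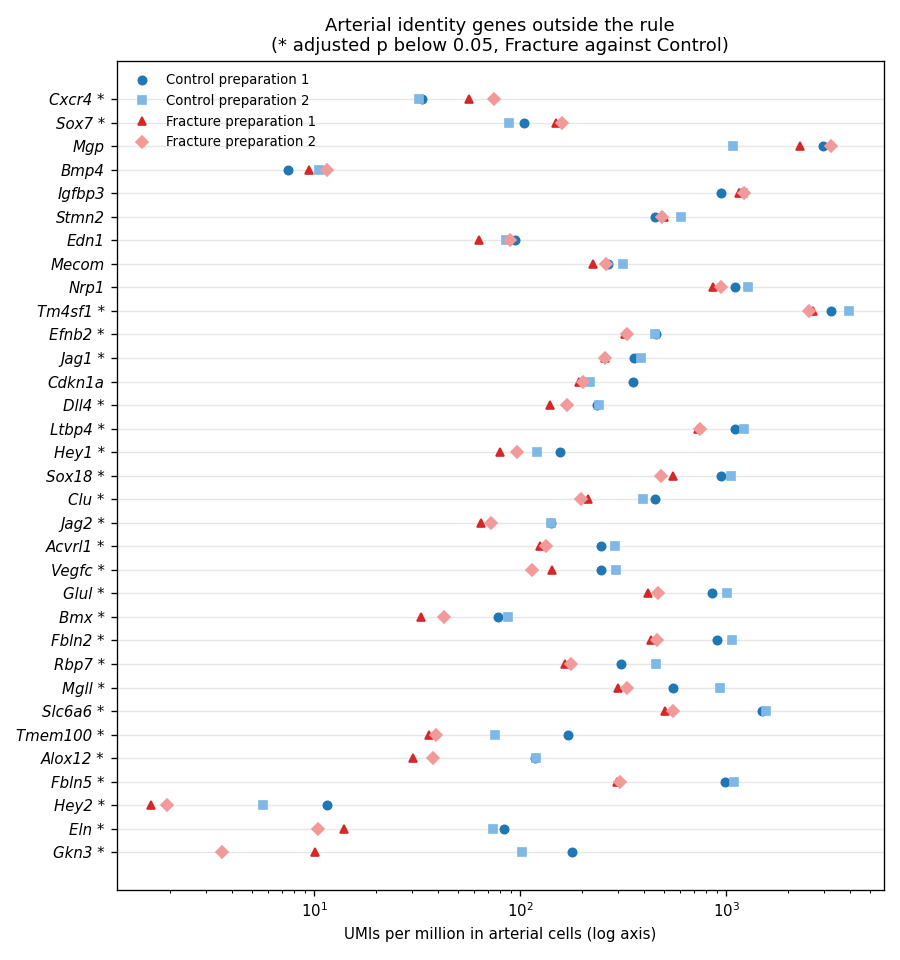
Level of 33 arterial identity genes outside the rule in the members (x axis, CPM on a log axis), with 1 point per preparation and genes ordered by log2 change. Asterisks mark an adjusted p under 0.05 in edgeR. For the 23 genes called lower, both Fracture preparations lie to the left of both Control preparations, which describes genes already picked by the test. Genes that did not pass can lie so too, such as Mecom at 268 and 317 CPM in Control and 226 and 261 CPM in Fracture.

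Part of these falls depended on how the cells were chosen. Under the stricter limit, the rule after thinning and Gja4 alone, 16 of the 23 genes fell in every case, among them Fbln5 (log2 change -1.42 in the first and -1.47 in the last), Eln (-2.41 and -2.36), Gkn3, Slc6a6, Bmx, Dll4 and Jag2. The other 7, namely Efnb2, Hey1, Hey2, Jag1, Ltbp4, Tm4sf1 and Tmem100, did not pass in at least 1 of them. For Efnb2 the stricter limit gave log2 change -0.15 ± 0.11, adjusted p = 0.347, and for Jag1 log2 change -0.23 ± 0.11, adjusted p = 0.192. The median of the list was -0.68 under the stricter limit and -0.65 and -0.67 under the other 2 choices. With Gja4 alone, which used neither Sema3g nor Sox17, and without TMM scaling, Sema3g was at 633 and 726 CPM in Control and 245 and 264 CPM in Fracture, and Sox17 at 769 and 782 against 393 and 421 CPM, while Gja5 was at 209.9 and 218 against 213 and 166 CPM and overlapped.

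**Figure D3:**
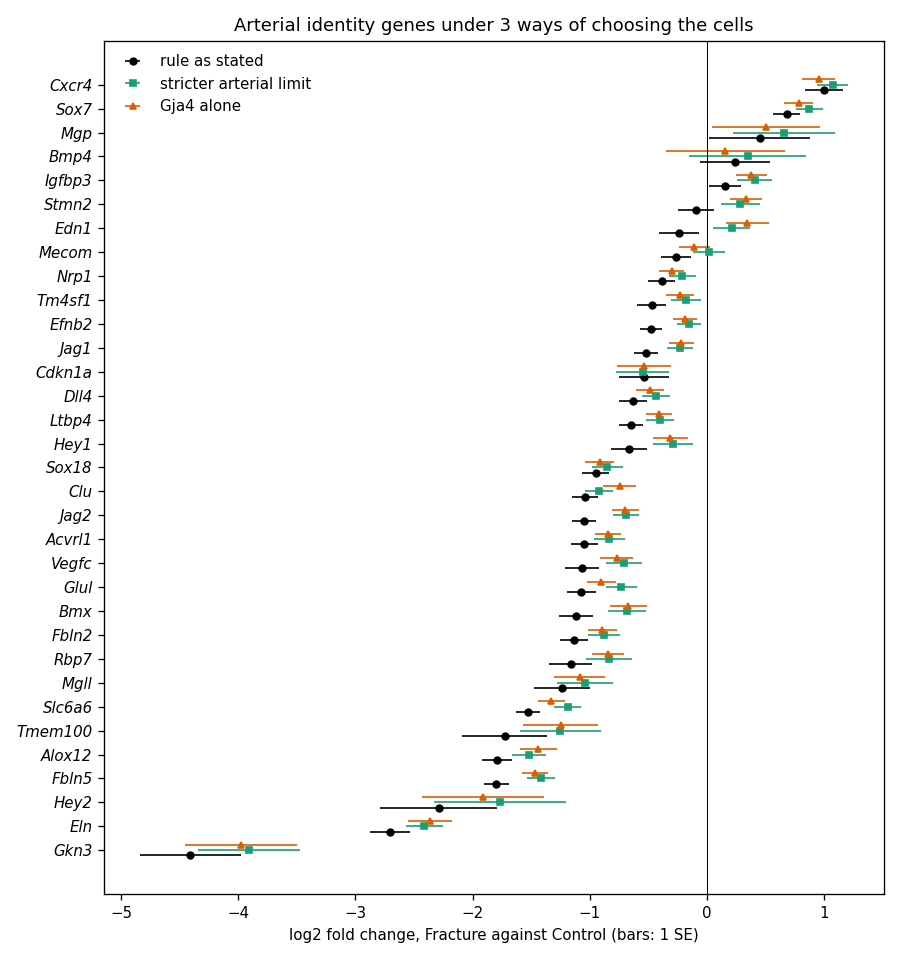
Log2 fold change between Fracture and Control (x axis, bars are 1 SE) of the same 33 genes with the rule as stated, with the stricter arterial limit and with Gja4 as the sole arterial gene. Fbln5, Eln and Gkn3 are at -1.42 or lower under all 3 choices, while Efnb2 and Jag1 lie between -0.23 and -0.15 under the other 2.

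Notch ligands, receptors and targets fell in part. Of 23 Notch pathway genes tested, 10 fell (all genes tested, 11.9%), 1 rose (13.4%) and 12 did not pass. The median log2 change was -0.48. Leaving out 1 Fracture preparation left 3 and 4 that fell. Among the ligands, Dll4 was at 235 and 242 CPM in Control and 139 and 169 in Fracture (log2 change -0.63 ± 0.12, adjusted p = 0.0141). Jag1 was at 357 and 386 CPM in Control and 259 and 259 in Fracture (log2 change -0.52 ± 0.10, adjusted p = 0.0142). Jag2 fell by 1.05 and Dll1 by 1.34 on the log2 scale (adjusted p = 0.0018 and 0.00265). Of the receptors, Notch4, the endothelial one, was at 221 and 235 CPM in Control and 143 and 152 in Fracture (log2 change -0.63 ± 0.10, adjusted p = 0.0073), and Notch1 fell by 0.47 (adjusted p = 0.0312). Among the targets, Hey1 was at 156 and 121 CPM in Control and 79.5 and 96 in Fracture (log2 change -0.66 ± 0.16, adjusted p = 0.0262). Hey2 was at 11.6 and 5.65 CPM in Control and 1.62 and 1.92 in Fracture (log2 change -2.29 ± 0.50, adjusted p = 0.021). Nrarp, a feedback inhibitor, was at 157 and 149.8 CPM in Control and 105 and 115 in Fracture (log2 change -0.48 ± 0.10, adjusted p = 0.0174). Hes1 did not pass (log2 change 0.03, adjusted p = 0.89). The glycosyltransferase Mfng, which modifies Notch receptors, was the gene that rose (log2 change 0.66 ± 0.10, adjusted p = 0.00734). Under the stricter limit 6 of these genes fell and 1 rose. Jag1 and Hey1 passed under none of the other choices of cells given above.

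The 250 bases before the start of Hey2 and of Nrarp are printed because both are Notch targets that fell together and were in the RefSeq promoter table (GRCm38.p6). Capitals mark the letters TGGGAA or their reverse complement TTCCCA, the core of the motif bound by RBPJ, the DNA-binding partner of Notch. The stretch of Hey2 (chr10:30842784-30843033, minus strand) held 1 match on the reverse strand that starts 207 bases before the gene start, and that of Nrarp (chr2:25180508-25180757, plus strand) held none. Of 32851 stretches of the same length in the table, 21.6% held at least 1 match on either strand, so a match is a description of the letters only.
Hey2: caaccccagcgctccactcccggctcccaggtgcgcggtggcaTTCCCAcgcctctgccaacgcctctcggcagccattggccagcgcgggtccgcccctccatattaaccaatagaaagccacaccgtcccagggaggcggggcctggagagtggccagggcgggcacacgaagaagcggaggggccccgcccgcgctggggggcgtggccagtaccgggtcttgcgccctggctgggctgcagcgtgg
Nrarp: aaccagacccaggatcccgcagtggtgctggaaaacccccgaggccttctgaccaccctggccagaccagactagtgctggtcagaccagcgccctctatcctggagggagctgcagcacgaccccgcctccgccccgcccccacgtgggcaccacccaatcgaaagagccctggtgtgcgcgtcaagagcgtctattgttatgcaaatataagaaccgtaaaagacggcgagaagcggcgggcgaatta

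Genes of the VEGF, angiopoietin, ephrin and apelin pathways were called higher in 5 and lower in 8 of 25. The shares over all genes tested were 13.4% and 11.9%, and the median log2 change of the list was -0.01. Fewer were called with either Fracture preparation left out. Among the ligands, Apln, the apelin ligand known from tip cells, was at 10.1 and 8.13 CPM in Control and 82.7 and 87.3 in Fracture (log2 change 3.19 ± 0.15, adjusted p = 8.0e-04). Its libraries of Control preparation 2 were at 2.7 and 14.5 CPM without TMM scaling. Pgf, placental growth factor, was at 24.8 and 15.5 CPM in Control and 78.5 and 76.6 in Fracture (log2 change 1.90 ± 0.20, adjusted p = 0.00214). Angpt2, the angiopoietin of remodelling vessels, was at 8.43 and 5.3 CPM in Control and 35 and 28.8 in Fracture (log2 change 2.17 ± 0.25, adjusted p = 0.00305). Vegfc, which acts on lymphatic and arterial growth, was at 248 and 293 CPM in Control and 143 and 114 in Fracture (log2 change -1.07 ± 0.15, adjusted p = 0.0049). Of the receptors, Aplnr, the partner of apelin, was at 158 and 117 CPM in Control and 435 and 449.7 in Fracture (log2 change 1.68 ± 0.15, adjusted p = 0.00159), whereas Flt1, a decoy receptor of VEGF, was at 1347 and 1535 CPM in Control and 836 and 925 in Fracture (log2 change -0.71 ± 0.11, adjusted p = 0.00818). Kdr, the main signalling receptor of VEGF, did not pass (log2 change -0.09, adjusted p = 0.628). Tek, the angiopoietin receptor, fell by 0.76 and Ptprb, the phosphatase that restrains it, by 1.09 on the log2 scale (adjusted p = 0.0042 and 0.00194). Efnb2 was at 454 and 452 CPM in Control and 321 and 329 in Fracture (log2 change -0.48 ± 0.09, adjusted p = 0.0158). Under the other choices of cells given above Efnb2 did not pass. Ephb4 was at 183 and 197 CPM in Control and 146 and 144 in Fracture (log2 change -0.39 ± 0.10, adjusted p = 0.0304). Plxnd1, a semaphorin receptor, was at 340.3 and 339.5 CPM in Control and 498 and 518 in Fracture (log2 change 0.58 ± 0.10, adjusted p = 0.00866).

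Genes of growing capillaries and tip cells were mostly higher in the members of Fracture, with 15 of 22 higher, 3 lower (Flt1, Ramp3 and Insr), a share near that of all genes, and a median log2 change of 0.67. Without 1 Fracture preparation 10 and 9 were higher. Besides Apln and Aplnr, Plvap was at 910.1 and 1084 CPM in Control and 1281 and 1450.5 in Fracture (log2 change 0.45 ± 0.13, adjusted p = 0.0428). Plvap did not pass under the stricter limit (log2 change 0.46 ± 0.15, adjusted p = 0.0747). Cd34, a sialomucin of capillaries, was at 619 and 645 CPM in Control and 884 and 905 in Fracture (log2 change 0.50 ± 0.10, adjusted p = 0.0143). Apln was at 57.1 and 66.9 against 173 and 148 CPM in the other endothelial cells and at 43 and 31.2 against 141 and 166 CPM in the sinusoidal cells, given as Control against Fracture, so the other classes held more of it than the members in both groups. After thinning, an Apln UMI was found in 1.78% and 1.1% of the Control members and 9.4% and 8.24% of the Fracture members, against at most 2.3% of chondrocyte-rich cells. With the stricter limit the rise of Apln remained (log2 change 3.31 ± 0.44, adjusted p = 0.00615), and 11 of the 22 genes were higher and 3 lower. The level of Apln changed with how the cells were chosen. With Gja4 alone, and without TMM scaling, it was at 3.8 and 1.54 CPM in Control and 16.2 and 34.1 in Fracture.

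Of 31 vessel wall matrix genes tested, 18 rose (all genes tested, 13.4%) and 6 fell (11.9%), with a median log2 change of 0.78. Col4a1 and Col4a2 are the chains of collagen IV. Col4a1 was at 1397 and 1444 CPM in Control and 3193 and 3479 in Fracture (log2 change 1.23 ± 0.10, adjusted p = 0.00118). Col4a2 was at 728 and 862 CPM in Control and 1972 and 2212 in Fracture (adjusted p = 0.00149). Lama4 and Lamb1, laminin chains, rose by 1.20 and 1.76, Hspg2 (perlecan) by 0.74, and Col15a1 and Col18a1 by 2.55 and 1.62 on the log2 scale, with adjusted p of 0.00125, 9.9e-04, 0.00396, 8.0e-04 and 9.1e-04. All of these were higher in the members than outside the endothelial gate. Sparc, a collagen-binding matrix protein (6414 and 5473 CPM in Control and 11457 and 10841 in Fracture, log2 change 0.91 ± 0.11, adjusted p = 0.00325), and Fn1, fibronectin (596 and 401 CPM in Control and 2039 and 1265 in Fracture, log2 change 1.73 ± 0.27, adjusted p = 0.00745), also rose, but the cells outside the gate held 30677 and 6887 CPM of them in Fracture. The genes that fell were Fbln5, Fbln2, Ltbp4, Eln and the laminin chains Lama3 and Lamb2, while Emilin1, Lox and Loxl2, which act on elastic fibres or cross-link matrix, rose. Outside the gate in Fracture these 3 were at 323, 537 and 143 CPM, above the members. Mgp, an inhibitor of calcification, was at 2949 and 1076 CPM in Control and 2273 and 3221 in Fracture and did not pass (adjusted p = 0.476). Its libraries of Fracture preparation 2 were at 1461 and 5063 CPM without TMM scaling. Outside the gate Mgp was at 8081 CPM in Control and 14506 CPM in Fracture.

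Matrix proteases and their inhibitors changed in 15 of 23 genes (all genes tested, 25.3%), 13 of them higher (13.4%). The median log2 change was 0.70. With 1 Fracture preparation fewer, 7 and 7 were higher. Mmp13, a collagenase of hypertrophic cartilage, was at 18.5 and 20.5 CPM in Control and 419 and 303 in Fracture (log2 change 4.21 ± 0.20, adjusted p = 8.0e-04), at a level that was 28.5% of that in cells outside the gate in Fracture. The libraries of Fracture preparation 2 were at 128 and 488 CPM without TMM scaling. Mmp14, a membrane-bound protease, rose by 1.69, Adamts4 by 1.65 and Ctsb, a lysosomal protease, by 0.46 on the log2 scale (adjusted p = 9.1e-04, 0.00196 and 0.0177). Timp3 and Adam15 were the genes that fell. Timp3, a matrix-bound inhibitor, was at 382 and 348 CPM in Control and 143 and 133 in Fracture (log2 change -1.41 ± 0.11, adjusted p = 0.00103). Adam15, a membrane protease, was at 429.9 and 521 CPM in Control and 305 and 322 in Fracture (log2 change -0.60 ± 0.12, adjusted p = 0.018).

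**Figure D4:**
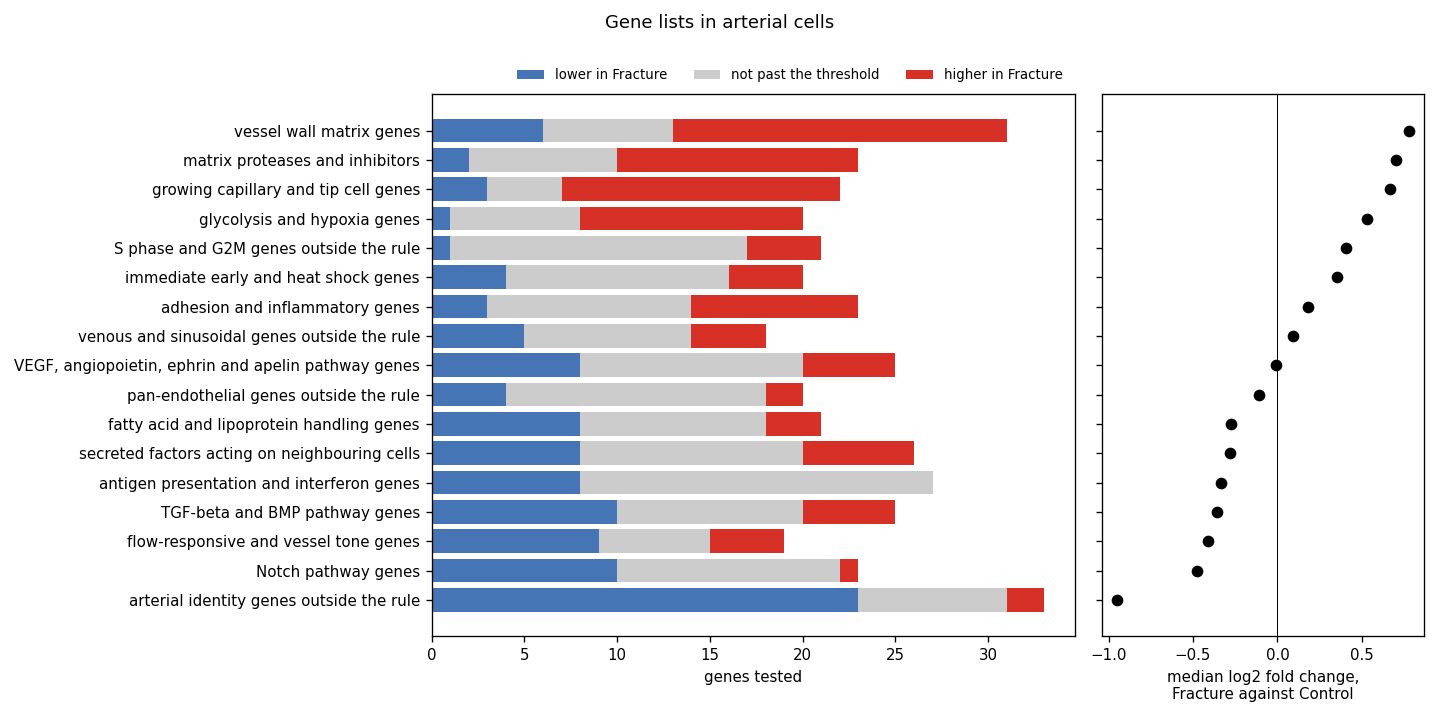
Number of genes lower, not past the threshold and higher in the members of Fracture for the 17 gene lists (left, x axis in genes tested) and the median log2 fold change of each list (right). The arterial identity list has the lowest median, -0.95, and the vessel wall matrix list the highest, 0.78, against -0.003 over all genes tested.

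More flow-responsive genes fell than rose. Of 19 flow-responsive and vessel tone genes tested, 9 fell (all genes tested, 11.9%), 4 rose (13.4%) and 6 did not pass. The median log2 change was -0.41. When 1 Fracture preparation was left out, 3 and 4 fell and 1 and 1 rose. Klf2 and Klf4 are transcription factors induced by laminar flow. Klf2 was at 3203 and 2240.5 CPM in Control and 1216 and 1182 in Fracture (log2 change -1.18 ± 0.17, adjusted p = 0.00583). Klf4 was at 1126 and 792 CPM in Control and 420.1 and 447 in Fracture (log2 change -1.15 ± 0.17, adjusted p = 0.00655). Thbd, the anticoagulant receptor thrombomodulin, fell by 1.01 and Nos3, endothelial nitric oxide synthase, by 0.41 on the log2 scale (adjusted p = 0.00282 and 0.0326). Ece1, which activates endothelin, was at 641 and 755 CPM in Control and 511 and 529 in Fracture (log2 change -0.42 ± 0.12, adjusted p = 0.0405). Cav1, the structural protein of caveolae, was at 883 and 889 CPM in Control and 1100.3 and 1134 in Fracture (log2 change 0.33 ± 0.09, adjusted p = 0.0441), and Gja1, a connexin that is not in the rule, rose by 0.67 (adjusted p = 0.0191). Under the stricter limit 5 fell and 4 rose, and Klf2 fell there too (log2 change -0.96 ± 0.17, adjusted p = 0.0142).

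TGF-beta and BMP pathway genes fell in 10 (all genes tested, 11.9%) and rose in 5 (13.4%) of 25 genes tested. The median log2 change was -0.36. With 1 Fracture preparation left out fewer genes were called and the excess of falls was gone. The median was then -0.40 without preparation 1 and -0.31 without preparation 2. Under the stricter limit 5 fell and 3 rose. Id1 and Id3 are targets of BMP signalling. Id1 was at 1326 and 1284 CPM in Control and 587 and 591 in Fracture (log2 change -1.15 ± 0.10, adjusted p = 0.00125). Id3 was at 1725 and 1901 CPM in Control and 1209 and 1273 in Fracture (log2 change -0.55 ± 0.10, adjusted p = 0.0133). Of the receptors, Acvrl1 (ALK1), the receptor of circulating BMP9, fell by 1.05 (adjusted p = 0.00252). Tgfbr2 was at 453 and 521 CPM in Control and 345 and 366 in Fracture (log2 change -0.45 ± 0.11, adjusted p = 0.0308). Tmem100, a known target of ALK1, was at 171 and 75.2 CPM in Control and 36 and 39.2 in Fracture (log2 change -1.73 ± 0.36, adjusted p = 0.0193), and the inhibitory Smad6 fell by 1.17 (adjusted p = 0.00244). Smad1, a transducer of BMP signals, rose by 0.83, and Bambi, a decoy receptor, by 1.09 on the log2 scale (adjusted p = 0.00342 and 0.0022). Outside the gate Bambi was at 314 CPM in Fracture. Ltbp4, described above, belongs to this list as well.

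Of 23 adhesion and inflammatory genes tested, 9 rose (all genes tested, 13.4%) and 3 fell, which is near the share of all genes (11.9%), with a median log2 change of 0.18. Vcam1 did not pass, and Cx3cl1 was among the genes that fell. Sele, E-selectin, was at 7.22 and 4.95 CPM in Control and 46.1 and 65.6 in Fracture (log2 change 3.16 ± 0.26, adjusted p = 0.00125). Selp, P-selectin, was at 19 and 9.19 CPM in Control and 69.7 and 80.7 in Fracture (log2 change 2.35 ± 0.27, adjusted p = 0.00282). Icam1 was at 6.5 and 5.65 CPM in Control and 34.1 and 34.8 in Fracture (log2 change 2.48 ± 0.19, adjusted p = 0.00103). Cxcl1, a chemokine for neutrophils, was at 5.3 and 7.42 CPM in Control and 55.5 and 68.3 in Fracture (log2 change 3.32 ± 0.21, adjusted p = 9.1e-04). Without TMM scaling the libraries of Fracture preparation 2 were at 87.6 and 32.1 CPM for Sele and 110.0 and 36.8 CPM for Selp, and those of Fracture preparation 1 at 69.2 and 32.4 CPM for Cxcl1. Under the stricter limit Sele was still called, but Selp was not (log2 change 0.49 ± 0.53, adjusted p = 0.557). Their levels changed with how the cells were chosen. In Fracture, without TMM scaling, Sele was at 5.02 and 3.5 CPM in Gja5+ and at 62.3 and 88 CPM in Gja5- members. With Gja4 as the sole arterial gene Sele was at 0.761 and 0 against 7.07 and 5.11 CPM and Selp at 6.08 and 2.06 against 4.04 and 3.41 CPM, Control against Fracture. Cxcl12, the ligand of Cxcr4, was at 1767 and 1849 CPM in Control and 985 and 1042 in Fracture (log2 change -0.83 ± 0.10, adjusted p = 0.00296), with 3007 CPM in the Control cells outside the gate. Jam2, a junctional adhesion molecule, was at 360.3 and 348 CPM in Control and 163 and 170.1 in Fracture (log2 change -1.09 ± 0.10, adjusted p = 0.00149). Nfkbia, an inhibitor of NF-kappaB, was at 555 and 437 CPM in Control and 706 and 861 in Fracture (log2 change 0.66 ± 0.16, adjusted p = 0.027).

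Of 27 antigen presentation and interferon genes 0 rose (all genes tested, 13.4%), and 8 fell (11.9%) by edgeR. The median log2 change was -0.34. At an unadjusted p under 0.05 none was higher and 13 were lower, where 4646 of all 11729 genes passed in either direction. DESeq2 called 0 higher and 9 lower, against 911 and 728 of all 11729 genes. By edgeR 4 and 2 fell with 1 Fracture preparation left out, 16 fell without Control preparation 1, and 2 rose without Control preparation 2. Ly6c1 and Ly6a are surface proteins of arterial and capillary endothelium. Ly6c1 was at 2098 and 2481 CPM in Control and 1041 and 1134 in Fracture (log2 change -1.07 ± 0.12, adjusted p = 0.00266). Ly6a was at 2118 and 2635 CPM in Control and 1487 and 1446 in Fracture (log2 change -0.70 ± 0.13, adjusted p = 0.0125). Psmb8, a subunit of the immunoproteasome, was at 318 and 374 CPM in Control and 254 and 265 in Fracture (log2 change -0.41 ± 0.12, adjusted p = 0.0437). Tapbp, which loads peptides onto MHC class I, was at 288 and 294 CPM in Control and 182 and 187 in Fracture (log2 change -0.65 ± 0.09, adjusted p = 0.00576). The heavy chain genes H2-K1 and H2-D1 did not pass (adjusted p = 0.0557 and 0.399).

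Fatty acid handling fell in 8 (all genes tested, 11.9%) and rose in 3 of 21 genes tested, a share near that of all genes (13.4%). The median log2 change was -0.27, and fewer genes were called with 1 Fracture preparation left out. Fabp4, a fatty acid-binding protein of capillaries, was at 5583 and 6403 CPM in Control and 4064 and 4066 in Fracture (log2 change -0.56 ± 0.10, adjusted p = 0.0126). Cd36, a fatty acid transporter, was at 454 and 641 CPM in Control and 164 and 134 in Fracture (log2 change -1.87 ± 0.19, adjusted p = 0.00204). Apoe, a lipoprotein component, was at 630.0 and 562 CPM in Control and 167 and 118 in Fracture (log2 change -2.07 ± 0.18, adjusted p = 0.0013), with 878 CPM outside the gate in Control. Fabp5, another fatty acid-binding protein, rose by 0.59 (adjusted p = 0.0177). Of 20 glycolysis and hypoxia genes, 12 rose (all genes tested, 13.4%) and Ndrg1 fell, with a median of 0.53. Most of these calls were lost with either Fracture preparation left out. The median was then 0.51 without preparation 1 and 0.57 without preparation 2. DESeq2 called 6 higher, and 911 of all 11729 genes. Pkm, pyruvate kinase, was at 275 and 259.7 CPM in Control and 638 and 604 in Fracture (log2 change 1.22 ± 0.10, adjusted p = 0.00125). Ldha, lactate dehydrogenase, was at 319 and 302 CPM in Control and 464 and 443 in Fracture (log2 change 0.55 ± 0.10, adjusted p = 0.0118). Gapdh was at 373 and 425 CPM in Control and 629 and 576 in Fracture (log2 change 0.59 ± 0.11, adjusted p = 0.0142). The cells outside the gate held more of all 3 in Fracture, at 814, 784 and 660.1 CPM. Ndrg1, a gene induced by hypoxia in many cells, was at 291 and 312 CPM in Control and 147 and 180.0 in Fracture (log2 change -0.88 ± 0.13, adjusted p = 0.00576).

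Among secreted factors, 6 of 26 rose (all genes tested, 13.4%) and 8 fell (11.9%), with a median log2 change of -0.28. Fewer were called with 1 Fracture preparation left out. Igfbp7, which binds insulin-like growth factors and matrix, was at 3079 and 3395 CPM in Control and 6803 and 6867 in Fracture (log2 change 1.08 ± 0.10, adjusted p = 0.00149). Kitl, the stem cell factor of the marrow niche, was at 524 and 588 CPM in Control and 255 and 252 in Fracture (log2 change -1.13 ± 0.11, adjusted p = 0.00166), and Igf2 fell by 2.24 on the log2 scale (adjusted p = 0.00146). Dkk2, one of the genes that set the members apart, was at 73.2 and 72.4 CPM in Control and 124 and 127 in Fracture (log2 change 0.79 ± 0.09, adjusted p = 0.00293). Venous and sinusoidal genes outside the rule rose in 4 (all genes tested, 13.4%) and fell in 5 (11.9%) of 18 genes tested (median 0.10). With 1 Fracture preparation left out fewer were called. The rises were 7 without Control preparation 1. Under the stricter limit 2 of 16 genes rose and 3 fell. The 4 rises by the rule as stated were Lyve1, Selp, Sele and Ctsl, and Sele and Selp changed with the choice of cells. Il6st, the shared receptor chain of interleukin-6 signalling, was at 297 and 247 CPM in Control and 199 and 206 in Fracture (log2 change -0.43 ± 0.12, adjusted p = 0.0438). Tfpi, an inhibitor of coagulation, was at 167 and 194 CPM in Control and 129 and 129 in Fracture (log2 change -0.48 ± 0.11, adjusted p = 0.0238). Ctsl, a lysosomal protease, was at 417 and 480.5 CPM in Control and 622 and 643 in Fracture (log2 change 0.50 ± 0.11, adjusted p = 0.0226). Nr2f2, the transcription factor of venous identity, did not pass (log2 change 0.73, adjusted p = 0.0793).

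General endothelial genes were called at a share near that of all genes. Of 20 pan-endothelial genes outside the rule, 2 rose (Ecscr and Cd34), 4 fell (Flt1, Tek, Cldn5 and Sox18) and 14 did not pass, with a median log2 change of -0.11. With either Fracture preparation left out 2 fell and 0 rose by edgeR. Cldn5, a claudin of tight junctions, was at 1435 and 1654 CPM in Control and 1082 and 1075 in Fracture (log2 change -0.52 ± 0.11, adjusted p = 0.019). Immediate early and heat shock genes, which respond to cell isolation, rose in 4 (all genes tested, 13.4%) and fell in 4 (11.9%) of 20 (median 0.35). Without Control preparation 1 these counts were 13 and 3 (median 0.60), without Control preparation 2 they were 6 and 8 (median -0.08), and with 1 Fracture preparation left out 1 and 1 rose and 0 and 1 fell, so the list gave no direction. Ier3 was at 153 and 84.4 CPM in Control and 456 and 526 in Fracture (log2 change 2.04 ± 0.26, adjusted p = 0.00400). Junb was at 726 and 452 CPM in Control and 1141 and 1260.3 in Fracture (log2 change 1.03 ± 0.22, adjusted p = 0.019). The chaperones Hspa8 and Hsp90aa1 fell by 0.33 and 0.49 (adjusted p = 0.0462 and 0.0372). Hsp90aa1 was at 564 CPM outside the gate in Control. The rule had left out cells with more than 1 UMI of Top2a and Mki67. Of 21 other genes of S phase and G2M, 4 rose (Tyms, Hells, Cdk1 and Ccnb2), not far from the share of all genes (13.4%). Tubb4b fell, and the median was 0.41. With 1 Fracture preparation left out 2 and 1 rose, and 7 rose without Control preparation 1. The count moved with the choice of cells. Under the stricter limit 1 of 17 rose, with Gja4 alone 1 of 16 (median 0.05), and with the rule after thinning 8 of 20. Hells, a chromatin remodeller of dividing cells, was at 3.13 and 4.24 CPM in Control and 17.2 and 17.8 in Fracture (log2 change 2.27 ± 0.28, adjusted p = 0.00369). Cdk1 was at 8.19 and 7.42 CPM in Control and 16.9 and 21.7 in Fracture (log2 change 1.30 ± 0.25, adjusted p = 0.0139). Tyms, thymidylate synthase, was at 34 and 32.5 CPM in Control and 48.3 and 51.9 in Fracture (log2 change 0.59 ± 0.12, adjusted p = 0.0173). Tubb4b, a tubulin, was at 261 and 210.2 CPM in Control and 158 and 158 in Fracture (log2 change -0.58 ± 0.13, adjusted p = 0.0218). Outside the gate Cdk1 and Ccnb2 were at 60.2 and 33.1 CPM in Fracture and Tubb4b at 292 CPM in Control.

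Of the 12 largest rises of genes at or above the level outside the gate, Nts, which encodes the peptide neurotensin, was at 6.5 and 14.5 CPM in Control and 141 and 165 in Fracture (log2 change 3.94 ± 0.28, adjusted p = 9.1e-04), with at most 0.174 CPM in cells outside the gate. The libraries of Fracture preparation 1 differed, at 221 and 21.4 CPM without TMM scaling, and those of preparation 2 were at 192 and 116 CPM. Cxcl9, a chemokine induced by interferon-gamma, was at 6.02 and 6.71 CPM in Control and 127 and 41.4 in Fracture (log2 change 3.71 ± 0.61, adjusted p = 0.00876). Without TMM scaling the first library of Fracture preparation 1 was at 184 CPM and the other 3 Fracture libraries at 39.8, 20.5 and 63.1 CPM. Ms4a6d, a membrane protein best known from macrophages, was at 5.06 and 8.83 CPM in Control and 78.2 and 66.7 in Fracture (log2 change 3.43 ± 0.23, adjusted p = 9.1e-04). The libraries of Fracture preparation 1 were at 104 and 36.8 CPM for Ms4a6d without TMM scaling. Cd276, the immune checkpoint protein B7-H3, was at 8.43 and 10.2 CPM in Control and 96.3 and 94.7 in Fracture (log2 change 3.37 ± 0.14, adjusted p = 7.8e-04). Akr1b8, an aldo-keto reductase, was at 9.63 and 7.42 CPM in Control and 65.2 and 81.2 in Fracture (log2 change 3.07 ± 0.19, adjusted p = 9.1e-04). Mex3a, an RNA-binding protein, was at 6.26 and 3.89 CPM in Control and 42.5 and 43.9 in Fracture (log2 change 3.03 ± 0.22, adjusted p = 9.1e-04). Chst1, a sulfotransferase that modifies carbohydrate ligands of selectins, was at 10.4 and 2.47 CPM in Control and 57.7 and 54.9 in Fracture (adjusted p = 0.0041). Oaf rose by 2.88 on the log2 scale (adjusted p = 9.1e-04). Apln, Cxcl1 and Sele, described above, were also among the 12.

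Of the 12 largest falls, Timp4, an inhibitor of metalloproteinases, was at 38.5 and 39.9 CPM in Control and 0.973 and 2.47 in Fracture (log2 change -4.43 ± 0.30, adjusted p = 9.1e-04). Fmo2 and Fmo1 are flavin-containing monooxygenases. Fmo2 was at 56.1 and 37.1 CPM in Control and 5.84 and 6.59 in Fracture (log2 change -2.91 ± 0.27, adjusted p = 0.00166). Fmo1 was at 43.1 and 49.5 CPM in Control and 8.43 and 8.78 in Fracture (log2 change -2.41 ± 0.17, adjusted p = 9.1e-04). The libraries of Control preparation 2 were at 21.3 and 56.4 CPM for Fmo2 without TMM scaling. Nebl, the actin-binding protein nebulette, was at 301 and 262 CPM in Control and 57.4 and 53.8 in Fracture (log2 change -2.34 ± 0.12, adjusted p = 8.0e-04). Gper1, a G protein-coupled receptor for oestrogen, was at 63.3 and 51.6 CPM in Control and 12.3 and 9.88 in Fracture (log2 change -2.39 ± 0.18, adjusted p = 0.00104). Syt7, a synaptotagmin of exocytosis, was at 60.9 and 64.3 CPM in Control and 10.7 and 14.5 in Fracture (log2 change -2.29 ± 0.17, adjusted p = 9.1e-04). Tox2, an HMG-box transcription factor, was at 45.3 and 48.4 CPM in Control and 7.46 and 9.06 in Fracture (log2 change -2.49 ± 0.17, adjusted p = 9.1e-04). Dusp26, a phosphatase, Map3k6, a kinase of stress signalling, and Prune2 fell by 2.31, 2.63 and 2.62 on the log2 scale (adjusted p = 0.00137, 9.1e-04 and 0.00866). Gkn3 and Eln are the other two.

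Whether the fracture effect was particular to the arterial cells was tested by the interaction of class and group in edgeR, blocked on preparation, since both classes come from the same preparations. Against the 1167 sinusoidal cells, the effect differed for 4.69% of 12099 genes, 2.28% with a higher value in the arterial cells (276 genes) and 2.41% with a lower one (292 genes). Differences are given on the log2 scale as arterial minus sinusoidal. For Sele the arterial values were 7.22 and 4.95 against 46.1 and 65.6 CPM (Control against Fracture) and the sinusoidal ones 174 and 257 against 90.6 and 104 CPM, a difference of 4.16 ± 0.27 (adjusted p = 3.2e-04). With Gja4 as the sole arterial gene, and without TMM scaling, Sele in the Fracture members was at 7.07 and 5.11 CPM, while the other endothelial cells of the same preparations held 143 and 188 CPM. Ctsl, at 417 and 480.5 against 622 and 643 CPM in the members, was at 2912 and 3933 against 1086 and 1033 CPM in the sinusoidal cells (difference 2.09, adjusted p = 1.8e-04). Adamts5, an aggrecanase, did not pass the test in the members (23.6 and 25.1 against 30.8 and 27.4 CPM) and was at 1518 and 1742 against 276 and 368 CPM in the sinusoidal cells (difference 2.52, adjusted p = 3.2e-04), with the libraries of Fracture preparation 1 at 40.3 and 15.5 CPM in the members without TMM scaling. Akr1b8, Marcksl1, an actin regulator, and Fam167b showed differences of 2.98, 1.65 and 1.38, with the arterial cells low in Control and closer to the sinusoidal ones in Fracture.

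In the other direction, Jam2 was at 360.3 and 348 against 163 and 170.1 CPM in the members and at 39.6 and 41.7 against 62.5 and 69.9 CPM in the sinusoidal cells (difference -1.87 ± 0.14, adjusted p = 3.2e-04). Sparcl1, a matrix protein that limits adhesion, rose in the members (643 and 576 against 1166 and 1226 CPM) and was at 62.8 and 53.3 against 289 and 306 CPM in the sinusoidal cells (difference -1.47, adjusted p = 3.2e-04). Nebl (-7.06), Sulf1, a heparan sulfate sulfatase (-4.14), P4ha2, a collagen prolyl hydroxylase (-2.82), and Cdkn1a, the cell cycle inhibitor p21 (-2.14), differed in the same direction. Outside the gate these 4 were at 5.77, 18.1, 69.7 and 153 CPM in Control and higher in Fracture (43.6, 54.6, 299 and 472 CPM), and chondrocyte markers summed to 28303 and 21136 CPM in the sinusoidal cells of Fracture against 17495 and 13419 CPM in the members. The part of that RNA in these differences was not tested.

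**Figure D5:**
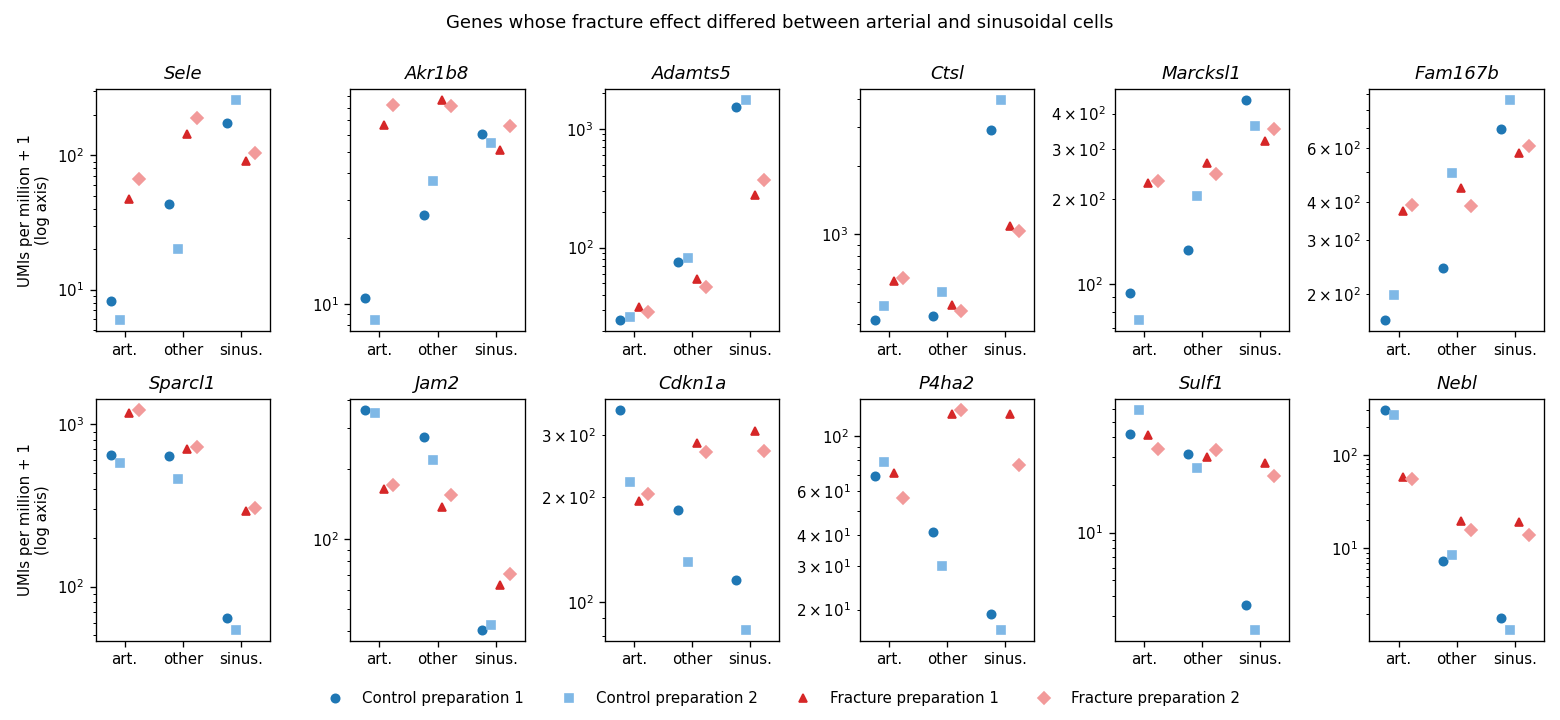
Level of the 12 genes named for a different fracture effect in arterial and sinusoidal cells, in arterial (art.), other and sinusoidal (sinus.) endothelial cells, in CPM plus 1 on log axes, with 1 point per preparation. Sele is higher in Fracture in the arterial and lower in the sinusoidal cells, and its arterial level of 46.1 and 65.6 CPM in Fracture is 7.07 and 5.11 CPM when Gja4 is the sole arterial gene, which is not plotted.

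Against the 1661 other endothelial cells, which held neither Stab2 nor more than 1 UMI of the arterial genes, the fracture effect differed for 3.33% of 12548 genes, with 2.73% higher in the arterial cells (343 genes) and 0.598% lower (75 genes). Itgb3, the platelet integrin, Mmd, Ptpn18, Mapk6, Smtn and Zfand5 led the first set. Itgb3 was at 56.8 and 23.7 against 45.4 and 43.9 CPM in the members and at 919 and 172 against 33.8 and 30.1 CPM in the other endothelial cells, Control against Fracture (difference 4.08 ± 0.33, adjusted p = 0.00198). The libraries of Control preparation 1 were at 92.6 and 27.9 CPM for Itgb3 and 82.7 and 35.6 CPM for Mmd, without TMM scaling. Mapk6 alone of the 6 changed in the members (log2 change 0.92 ± 0.26, adjusted p = 0.0454), and the differences of the other 5 lay between 1.49 and 4.08. The platelet gene Pf4 was at 6616 and 808 CPM in the other endothelial cells of Control and at 30.5 and 90.6 CPM in those of Fracture, and at 356 and 119 against 9.73 and 7.13 CPM in the members, so megakaryocyte or platelet RNA moved with this set, most of all in Control preparation 1. Its part was not tested.

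Of the genes with a lower effect in the arterial cells, Timp3 was at 121 and 124 against 113 and 111 CPM in the other endothelial cells (difference -1.26 ± 0.15, adjusted p = 0.00752), against its fall in the members. Gper1 was at 0.907 and 0.76 against 8.94 and 5.06 CPM there (-5.35, adjusted p = 0.00266). Nebl was at 6.35 and 7.6 against 18.6 and 14.5 CPM (-3.61, adjusted p = 0.00139). Arhgef25, a guanine nucleotide exchange factor, was at 10.9 and 6.84 against 16.4 and 16.2 CPM (-2.82, adjusted p = 0.00715). P4ha2 and Cdkn1a showed differences of -2.03 and -1.33. Gper1 was near the floor in the other endothelial cells of Control. Chondrocyte markers in the other endothelial cells summed to 7168 and 986 CPM in Control and 35752 and 39628 CPM in Fracture. In the members of Fracture they summed to 17495 and 13419 CPM. The part of such RNA in these differences was not tested. Nebl, Gper1, Timp3 and Arhgef25 fell in the members by the test of the groups, while P4ha2 and Cdkn1a did not pass it.

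For the arterial identity list, the fracture effect was lower than in sinusoidal cells for 13 of 33 genes by edgeR (all genes, 2.41%), of which 8 fell in the members and 5 (Stmn2, Mgp, Edn1, Mecom and Cdkn1a) did not pass there. In sinusoidal cells these 5 were higher in both Fracture preparations, such as Edn1 at 0.413 and 1.81 against 14.1 and 11.4 CPM and Mgp at 579 and 247 against 2931 and 2795 CPM. The list had a median difference of -1.35 against -0.04 over all genes. Several of its genes were near 0 in the sinusoidal cells, such as Hey1 at 1.65 and 0.363 against 1.2 and 2.27 CPM. Such genes have little room to fall there, so this median does not show an effect particular to the members. Against the other endothelial cells the effect was lower for 4 (Jag1, Fbln5, Tmem100 and Cdkn1a) and higher for 3 (Cxcr4, Sox7 and Alox12, beside which platelet RNA moved, as given above). All genes had 0.598% and 2.73% there. The median of the list was -0.07 against -0.01 over all genes. Fbln5 differed from both, by -1.03 (adjusted p = 0.0391) and -1.87 (adjusted p = 0.00137). Growing capillary genes had a higher effect in the members for 6 and 9 of 22 genes (all genes, 2.73% against the other endothelial and 2.28% against the sinusoidal cells), among them Apln, Aplnr, Angpt2 and Plvap in both. In Control, Apln, Aplnr and Angpt2 were at 9.12, 137 and 6.86 CPM in the members. They were at 62, 493 and 33.4 CPM in the other endothelial and at 37.1, 594 and 16.1 CPM in the sinusoidal cells. These log2 effects start from unequal levels, so they do not show an effect particular to the members. Apln also changed with the choice of cells, as given above. The interaction counts were smaller with 1 Fracture preparation left out, which also left that group without a replicate. Without Fracture preparation 1 or 2, 53 and 21 genes were higher against the other endothelial cells, and 116 and 94 against the sinusoidal cells. In the same order 9 and 2 genes were lower against the other endothelial cells and 99 and 85 against the sinusoidal cells.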

How the data were processed

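Droplet libraries (Chromium 3 prime kit, V3) of femoral stromal cells were analysed. The authors deposited UMI counts, not normalised, for each barcode and gene after alignment to mm10, and the submitters' processing notes list bcl2fastq 2.19.1.403, UMI-tools 1.0.0, STAR 2.7.3a and featureCounts 1.6.4. The study's methods name STARsolo and a filter on barcodes by EmptyDrops instead, and which of these pipelines made the deposited tables was not settled. Barcodes with 500 to 6000 genes and at most 25% mitochondrial UMIs were kept, 45328 of 48903. The members and the gene lists were chosen with earlier results of these data known. UMI counts were summed per class and preparation, without 368 genes for which both tables of Control preparation 1 list no UMI (1.26% to 1.475% of the UMIs of the other libraries). The groups were compared over the 4 preparations in edgeR 4.0.16 with glmQLFit and glmQLFTest (R 4.3.3, TMM scaling, filterByExpr, Benjamini-Hochberg adjustment, calls at an adjusted p under 0.05). Fracture effects of classes were compared by their interaction, blocked on preparation. A standard error is the log2 change divided by the root of the F statistic. For shares, an exact permutation test (two-sided) was used. Cells were thinned to 2000 UMIs before cells with a UMI were counted. Doublets were called by scrublet in scanpy 1.11.5 at an expected 6%, which marked 511 cells (1.13%), and were kept except in an alternative. Coordinates come from GENCODE M21 (GRCm38).

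Named were, in each direction, the 12 genes of largest change among those called without overlap of the preparations, with a mean of at least 20 CPM and a level in the higher group at or above that of cells outside the endothelial gate, leaving out rule genes, markers of other cells, mitochondrial and haemoglobin genes. Of each list at most 4 called genes of highest mean CPM were named (2 if none was called), and 6 genes of smallest p per direction of each class comparison with the same level limits. Further genes of a list, and the leading genes of the class, were named after their values were seen. A gene that met these rules is not reported here. In simulated counts with the means, library sizes and spread of the members (11422 genes, 200 changed), edgeR recovered 22.4% of 1.5-fold, 86.6% of 2-fold and all 4-fold changes, and called 0.045% of unchanged genes. In the data 25.3% of genes were called. The simulation also held no shift between the groups in RNA of other cells or depth per cell, so these rates need not carry over. DESeq2 1.42.0, median-of-ratios scaling, no filter on low counts, deeper cells, thinned cells, a stricter arterial limit, cells without doublet calls or rich in other RNA, and leaving out each preparation were tried as alternatives. Python 3.11.15, numpy 2.4.6, scipy 1.17.1, pandas 2.3.3, limma 3.58.1 and matplotlib 3.10.9 were also used. The precision of a summed count rests on 2770589 to 3999073 UMIs per preparation in the members.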

Additional observations from a re-analysis of the deposited data

Results flagged for a closer look

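The genes below drew a closer look because their response to fracture differed between arterial cells and another endothelial class, by edgeR's test of the interaction with Benjamini-Hochberg adjustment. Values are the log2 change in arterial cells minus that in the other class. Against the other endothelial cells the difference was 4.08 for Itgb3, 2.85 for Mmd, 2.56 for Mapk6, 2.08 for Ptpn18, 1.86 for Smtn and 1.49 for Zfand5. In the opposite direction it was -5.35 for Gper1, -3.61 for Nebl, -2.82 for Arhgef25, -2.03 for P4ha2, -1.33 for Cdkn1a and -1.26 for Timp3. The adjusted p of these 12 genes ran from 0.00122 to 0.00808.

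Against the sinusoidal cells the difference was 4.16 for Sele, 2.98 for Akr1b8, 2.52 for Adamts5, 2.09 for Ctsl, 1.65 for Marcksl1 and 1.38 for Fam167b. In the opposite direction it was -7.06 for Nebl, -4.14 for Sulf1, -2.82 for P4ha2, -2.14 for Cdkn1a, -1.87 for Jam2 and -1.47 for Sparcl1. The adjusted p of these 12 genes ran from 1.8e-04 to 9.4e-04. Platelet RNA in the other endothelial cells of Control and chondrocyte RNA in Fracture moved with parts of these lists, and their part was not tested.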

How the results depend on the processing

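For Fracture against Control in arterial cells, 911 genes were higher and 728 lower with DESeq2, and 847 were lower with the stricter arterial limit. With the genes missing from Control preparation 1 kept, a choice made after seeing the data, 1032 were higher and 901 lower. Leaving out 1 preparation gave 483 to 1906 higher and 358 to 1755 lower genes, with the lowest counts without Fracture preparation 1. For the interaction with other endothelial cells, DESeq2 called 217 higher and 31 lower, cells with at least 3000 UMIs gave 48 lower, thinned cells 204 higher and the stricter limit 33 lower. Leaving out 1 preparation gave 21 to 716 higher and 2 to 130 lower there, lowest without Fracture preparation 2. For the interaction with sinusoidal cells, DESeq2 called 110 higher and 91 lower, no filter on low counts 671 and 497, the stricter limit 147 lower, and the rule after thinning, chosen after seeing the data, 141 higher and 104 lower. Leaving out 1 preparation gave 94 to 440 higher and 85 to 382 lower. The cause of these shifts was not tested.

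Of 108 results on named genes, 0 reversed under the alternatives run for them. The call was lost for 3 with DESeq2, 16 with the stricter limit, 11 with the rule after thinning, 38 without Fracture preparation 1, 41 without Fracture preparation 2, and 5 and 2 without Control preparation 1 and 2. Gja4 alone and the missing genes kept were run only for Fracture against Control in arterial cells, where 10 of 83 and 12 of 84 calls were lost. With preparation numbers as a replicate block, 1783 genes were higher and 1557 lower. Same-numbered preparations deviated together with r = 0.133 over 11729 genes, but the labels do not say that a number marks a shared day or batch, so this is not read as a pairing. The exact permutation tests of shares could not go below p = 0.333 with 2 preparations per group, so they say nothing of stability. The arterial share difference ran from -9.90 to -3.73 percentage points when 1 preparation was left out.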
